A study of Mus musculus with 6 samples.

Results

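The genes described here carry fatty acids into the heart muscle cell, prepare them for oxidation and oxidise them, together with textbook targets of the peroxisome proliferator-activated receptors (PPARs). The list holds 37 genes. A gene was measured where the array annotation gave at least 1 probe set, the group of short probes that reads a transcript, with that gene as its only symbol, and where a gene had several, the one with the greatest mean log2 signal stood for it. On this rule 34 of the 37 genes were measured, of 18193 genes measured on the array. All 34 passed the filter that left out the dimmest 40% of probe sets (a signal under 115), and 13178 genes in all were tested. Acsl1 and Ucp2 had no probe set of their own symbol in the annotation used and were not analysed here. Cpt1b, the muscle form of carnitine palmitoyltransferase at the outer mitochondrial membrane, was not analysed here either, because its probe set is annotated to several genes.

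The study asked how a heart with raised glucose entry differs from a normal one. Left ventricles of 3 wild-type (WT) and 3 Glut1-TG mice were measured, all of them males of the FVB strain aged 11 to 12 weeks on standard chow. Glut1-TG mice carry the human insulin-independent glucose transporter Glut1 behind the alpha-myosin heavy chain promoter, which is active in cardiomyocytes, and the controls are labelled WT. The series text speaks of cardiac-specific transgenic mice for both groups, so whether the controls carry a transgene of another kind is not settled by these sources. The labels do not say whether an array holds RNA of 1 heart or of several, so the p-values measure only the spread between these samples.

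Fatty acids reach cardiomyocytes bound to albumin or set free from lipoproteins by lipoprotein lipase, cross the membrane with the help of CD36 and fatty acid transport proteins, and are bound inside the cell by FABP3. Acyl-CoA synthetases activate them, the carnitine shuttle moves them into mitochondria, and the beta-oxidation cycle shortens them while the electron transfer flavoprotein takes up electrons. PPAR alpha, encoded by Ppara, binds fatty acids as a nuclear receptor and switches on many of these genes, and the normal adult heart relies on this pathway for most of its fuel.

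The deposited signals had the same trimmed mean of 500 on all 6 arrays, and array medians lay between 171 and 187 in WT and between 181 and 213 in Glut1-TG. The mouse Slc2a1 probe set had a log2 fold change of 0.69 (limma adjusted p = 0.11), and since the transgene is human its probes do not check the labels. Cardiomyocyte markers were all above the filter, so the labelled tissue was borne out by its muscle markers. Because the labelled tissue is ventricle, 4 atrial markers were read as well. Myl4 rose in Glut1-TG hearts (limma adjusted p = 0.0085), and so did Myl7 (limma adjusted p = 0.041), although its WT signals of 26, 91 and 14 were under the filter. Nppa had a log2 fold change of -0.07 (limma adjusted p = 0.93), and Sln was under the filter with signals of 117, 116 and 114 in WT and 65, 57 and 39 in Glut1-TG. In whole tissue, fewer cells of a type and less RNA per cell cannot be told apart.

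No member of the list passed limma at an adjusted p of 0.05, lower or higher, against a background of 0.857% of all genes tested (0.599% lower and 0.258% higher). The smallest adjusted p was 0.12, for Ucp3. At an unadjusted limma p of 0.05 there were 11 of 34 members (32.4%), 6 lower and 5 higher, beside 11.3% of all genes (5.81% lower and 5.47% higher). At the study's thresholds, which ask for a fold above 1.25 together with an unadjusted p of 0.05, there were 4 members (11.8%), beside 5.86% of all genes. Of these Vldlr and Ehhadh were lower, beside 2.65% of all genes, though Ehhadh passed the filter through its WT arrays, with a Glut1-TG mean of 112, and a stricter filter left Vldlr alone. Acot2 and Ucp3 were higher, beside 3.21%. These shares say nothing of the list as a set, since the list was not tested as one.

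The signals of the 3 Glut1-TG arrays lay wholly outside those of the 3 WT arrays for 13 members (38.2%), beside 17.4% of all genes. Slc27a1, Lpl, Vldlr, Crat, Hadh, Ehhadh and Etfa were the 7 with lower Glut1-TG signals, beside 8.77% of all genes. Acot2, Cpt1a, Acaa1a, Eci2, Decr1 and Ucp3 were the 6 with higher ones, beside 8.67%. The log2 fold change was below 0 for 21 members (61.8%), beside 47% of all genes. Log2 fold changes (Glut1-TG minus WT) ran from -0.85 to 0.95 with a median of -0.07, while the median over all genes was 0.02. For 24 of 34 members (70.6%) the 95% confidence interval lay within 0.5 of 0 on the log2 scale, beside 34.6% of all genes. This share was higher among bright genes, and most members were bright, as given below. So for most of the list a change larger than 0.5 was outside the interval.

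**Figure D1:**
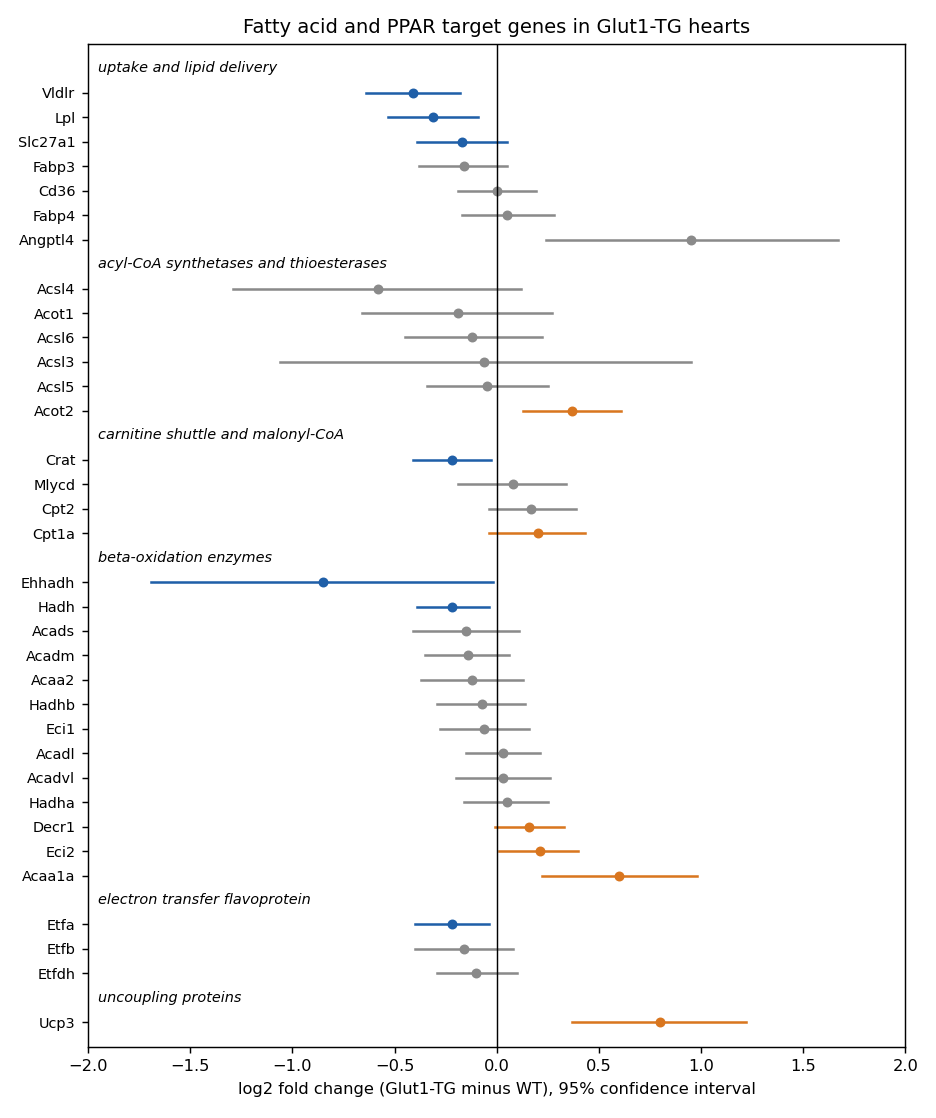
Log2 fold change (Glut1-TG minus WT, x axis) with its 95% confidence interval from limma for the 34 measured genes, ordered by role. Blue marks 7 genes whose 3 Glut1-TG signals all lay below the 3 WT signals, orange 6 genes whose signals all lay above, and grey the genes with overlapping groups; no gene passed the adjusted threshold, and the widest intervals belong to Acsl3 and Ehhadh.

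Among the 7 genes of uptake and lipid delivery the median log2 fold change was -0.16, with 3 members whose groups did not overlap, all of them lower, beside 8.77% of all genes. Vldlr, a lipoprotein receptor that also takes up triglyceride-rich particles in the heart, had signals of 6353, 5865 and 5950 in WT and 3933, 5037 and 4776 in Glut1-TG hearts. No Glut1-TG signal reached the WT range. Its mean was 6056 ± 261 (SD, n = 3) in WT and 4582 ± 577 (SD, n = 3) in Glut1-TG, a log2 fold change of -0.41 ± 0.10 (SE) with a 95% interval from -0.64 to -0.18 and a limma adjusted p of 0.14.

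Lpl encodes lipoprotein lipase, which splits triglycerides at the capillary wall, and in the heart it is made by the muscle cells. Its brightest probe set read 49640, 39277 and 43824 in WT and 36294, 35837 and 34278 in Glut1-TG. The groups were apart, although WT 2 was only slightly above the highest Glut1-TG array. The log2 fold change was -0.31 ± 0.10 (SE), from -0.53 to -0.09, and did not pass (limma adjusted p = 0.27).

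A further Lpl probe set gave another answer. It read 31696, 24905 and 27090 in WT and 13068, 13300 and 14302 in Glut1-TG hearts, so every Glut1-TG signal was well below the lowest WT signal. In a fit over all 34945 probe sets of 1 symbol, of which 0.243% passed in either direction and 0.172% downward, this Lpl signal fell by 1.03 on the log2 scale (SE 0.10, limma adjusted p = 0.0026). The call was lost in a fit without the intensity trend in the variance (adjusted p = 0.30). Of the 70 probe sets of the 34 measured genes it was the 1 that passed.

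The 2 Lpl probe sets were compared array by array. The log2 ratio of the further to the brightest probe set was -0.65, -0.66 and -0.69 in WT and -1.47, -1.43 and -1.26 in Glut1-TG hearts. The ratios were close to each other within each group and did not overlap between groups. Their mean difference was -0.72, with an exact two-sided permutation p of 0.1, the smallest that the 20 groupings of 6 arrays allow. The pair was picked from these data for its disagreement. With ratios that were apart this p could take no other value, so nothing is concluded from it. Which Lpl transcripts each probe set reads was not tested.

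Angptl4 encodes a secreted inhibitor of lipoprotein lipase and is a PPAR target. Its signals were 640, 1777 and 1291 in WT and 2641, 1664 and 2423 in Glut1-TG hearts. Although the fold change was the largest upward one of the list, the groups overlapped, since Glut1-TG 2 lay below WT 2. The log2 fold change was 0.95 ± 0.32 (SE), from 0.24 to 1.67 (limma adjusted p = 0.32), and it was 0.54 without WT 1, the array with the lowest signal.

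Slc27a1, a fatty acid transport protein with acyl-CoA synthetase activity, read 2157, 1919 and 1900 in WT and 1659, 1843 and 1793 in Glut1-TG. The groups were apart by a narrow gap, and the log2 fold change was -0.17 ± 0.10 (SE; limma adjusted p = 0.55). Cd36, the main membrane fatty acid translocase, differed by 0.00 ± 0.08 (SE) on the log2 scale, with an interval from -0.19 to 0.19. Its signals of 23367, 21886 and 24664 in WT and 22003, 24807 and 23052 in Glut1-TG hearts were interleaved.

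Fabp3, the fatty acid binding protein of muscle, read 59391, 48817 and 56334 in WT and 48121, 51608 and 47099 in Glut1-TG, with a log2 fold change of -0.16 ± 0.10 (SE; interval -0.38 to 0.05). Fabp4, the binding protein of adipocytes and capillary endothelium, had a log2 fold change of 0.05 ± 0.10 (SE; interval -0.17 to 0.28). Neither pair of groups was apart. The adipocyte markers gave no separate reading, since Adipoq, Cidec and Lep were under the filter and the summed signal of the list was 1054 to 1201 in WT and 729 to 1332 in Glut1-TG. Endothelial markers summed to 21526 to 24812 in WT and 22121 to 23044 in Glut1-TG, with none of 10 past limma.

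**Figure D2:**
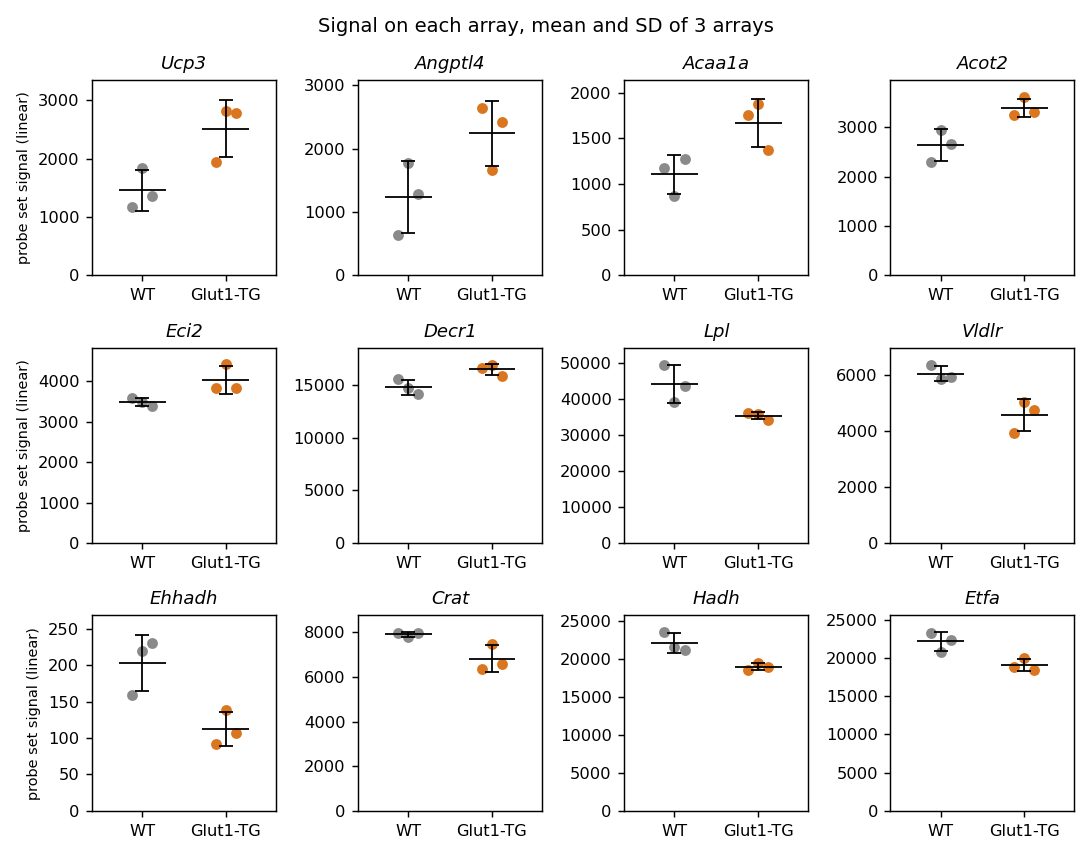
Probe set signal (linear scale, y axis from 0) on each array for 12 of the genes, WT in grey and Glut1-TG in orange, with the group mean and SD (n = 3) as bars. Ucp3, Acaa1a, Acot2, Eci2 and Decr1 have all Glut1-TG points above WT, Lpl, Vldlr, Ehhadh, Crat, Hadh and Etfa all below, and Angptl4 overlaps.

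The acyl-CoA synthetases and the thioesterases, which work in opposite directions on the CoA bond of activated fatty acids, gave 6 measured genes with a median log2 fold change of -0.09. Acot2, the mitochondrial acyl-CoA thioesterase and a PPAR target, was the 1 of them whose groups did not overlap, beside 17.4% of all genes. It read 2297, 2951 and 2660 in WT and 3260, 3606 and 3313 in Glut1-TG hearts. Its log2 difference was 0.37 ± 0.11 (SE), from 0.13 to 0.61, with a limma adjusted p of 0.22. Acot1, its cytosolic relative, had a log2 fold change of -0.19 ± 0.21 (SE; interval -0.66 to 0.27).

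Of the synthetases, Acsl5 and Acsl6 differed little between groups, with log2 fold changes of -0.05 ± 0.13 and -0.12 ± 0.15 (SE). Acsl4, which prefers arachidonic acid, had signals of 296, 292 and 523 in WT and 188, 216 and 331 in Glut1-TG. One Glut1-TG array lay inside the WT range, and the log2 fold change was -0.58 ± 0.32 (SE; interval -1.29 to 0.12). Without WT 3, the highest array, it was -0.31. Acsl3 was near the filter with signals of 87 to 199 and could not be resolved, its interval running from -1.06 to 0.95.

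The carnitine shuttle was represented by 4 measured genes with a median log2 fold change of 0.13. Crat, carnitine acetyltransferase, which passes surplus acetyl-CoA to carnitine, read 7964, 7795 and 7997 in WT and 6364, 7493 and 6600 in Glut1-TG hearts. All Glut1-TG signals were below WT, with Glut1-TG 2 closest to it. The log2 fold change was -0.22 ± 0.08 (SE; limma adjusted p = 0.38). A further Crat probe set, also without overlap, gave -0.40 (adjusted p = 0.31 over all probe sets), and another with overlapping groups gave -0.18 (adjusted p = 0.82).

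Cpt1a, the liver form of the outer-membrane palmitoyltransferase and a PPAR target, read 1066, 1088 and 1080 in WT and 1177, 1212 and 1320 in Glut1-TG. The groups were apart and the WT arrays were close together. Its log2 fold change was 0.20 ± 0.11 (SE; interval -0.04 to 0.43; limma adjusted p = 0.53). Its further probe sets gave 0.65 without overlap and 0.57 with overlap, none past the threshold. Both were dim, with WT means of 126 and 121, near the filter of 115. Cpt2, the inner-membrane enzyme, had a log2 fold change of 0.17 ± 0.10 (SE). Mlycd, malonyl-CoA decarboxylase, which removes the CPT1 inhibitor malonyl-CoA, had 0.08 ± 0.12 (SE).

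The 13 enzymes of beta-oxidation split almost evenly, 7 below 0 and 6 above, with a median log2 fold change of -0.06. For 11 of them the 95% interval lay within 0.5 of 0. Among the acyl-CoA dehydrogenases, which start each round, the log2 fold change was 0.03 ± 0.10 (SE) for the very-long-chain enzyme Acadvl. It was 0.03 ± 0.08 (SE) for the long-chain enzyme Acadl, -0.14 ± 0.09 (SE) for the medium-chain enzyme Acadm and -0.15 ± 0.12 (SE) for the short-chain enzyme Acads. None of the 4 had groups apart, and their intervals together ran from -0.41 for Acads to 0.26 for Acadvl.

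Hadha and Hadhb encode the alpha and beta subunits of the mitochondrial trifunctional protein, which carries out the later steps for long chains. Hadha read 23637, 20125 and 22041 in WT and 21523, 24403 and 22001 in Glut1-TG. Hadhb read 36017, 28945 and 32890 in WT and 30917, 32123 and 29603 in Glut1-TG. Both pairs of groups overlapped, with log2 fold changes of 0.05 ± 0.09 and -0.07 ± 0.10 (SE). Their RefSeq start sites lie 273 bases apart on chromosome 5, at 30154980 for Hadha and 30155253 for Hadhb (GRCm38.p6), on opposite strands, so the 250 bases before Hadhb reach almost to the start of Hadha.

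Hadh, the short-chain 3-hydroxyacyl-CoA dehydrogenase of the mitochondrial matrix, read 23583, 21514 and 21138 in WT and 18579, 19498 and 18898 in Glut1-TG. The groups were apart. The log2 fold change was -0.22 ± 0.08 (SE), from -0.39 to -0.04 (limma adjusted p = 0.35). A further Hadh probe set without overlap gave -0.18 and another with overlap 0.10. Acaa2, the mitochondrial thiolase, had -0.12 ± 0.11 (SE).

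The enzymes with a peroxisomal role did not move as 1 group. Among them Ehhadh, the bifunctional enzyme of peroxisomal beta-oxidation and a classic PPAR alpha target, read 159, 219 and 230 in WT and 92, 138 and 107 in Glut1-TG. Its groups were apart, but the Glut1-TG signals lay around the filter of 115, where signals are least certain. The log2 fold change was -0.85 ± 0.37 (SE), from -1.69 to -0.02 (limma adjusted p = 0.43).

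Acaa1a, the peroxisomal thiolase and likewise a PPAR target, lay in the other direction. It read 1174, 864 and 1277 in WT and 1758, 1875 and 1378 in Glut1-TG hearts, with a log2 fold change of 0.60 ± 0.17 (SE), from 0.22 to 0.98 (limma adjusted p = 0.20). Glut1-TG 3 was only slightly above the highest WT array. A further Acaa1a probe set had overlapping groups and a log2 fold change of 0.11.

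The list also holds auxiliary enzymes of unsaturated fatty acid oxidation, Eci2 and Decr1 above 0 and Eci1 near it. Eci2, an enoyl-CoA isomerase found in peroxisomes and mitochondria, read 3572, 3487 and 3373 in WT and 3826, 4418 and 3821 in Glut1-TG. Its log2 fold change was 0.21 ± 0.09 (SE; limma adjusted p = 0.42), without overlap. Decr1, the mitochondrial dienoyl-CoA reductase, read 15541, 14693 and 14115 in WT and 16658, 16927 and 15857 in Glut1-TG. The Decr1 groups were apart as well, with a log2 fold change of 0.16 ± 0.08 (SE; limma adjusted p = 0.49). Eci1, the mitochondrial isomerase, had -0.06 ± 0.10 (SE).

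The electron transfer flavoprotein hands electrons from the acyl-CoA dehydrogenases to the respiratory chain. The genes of its subunits and of its oxidoreductase, 3 in all, lay below 0 with a median log2 fold change of -0.16. They were among the brightest 10% of genes, of which 899 of 1317 lay below 0. Etfb and Etfdh did not keep this sign in every scaling of the arrays that was tried. Etfa, its alpha subunit, read 23272, 20803 and 22370 in WT and 18785, 19916 and 18412 in Glut1-TG hearts. The groups were apart, with a log2 fold change of -0.22 ± 0.08 (SE), from -0.40 to -0.04 (limma adjusted p = 0.36). The beta subunit Etfb had -0.16 ± 0.11 (SE) and the oxidoreductase Etfdh -0.10 ± 0.09 (SE), both with overlapping groups.

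Ucp3, the uncoupling protein of muscle mitochondria and a PPAR target that follows fatty acid supply, had the lowest p of the list. It read 1168, 1847 and 1356 in WT and 1948, 2820 and 2786 in Glut1-TG hearts. Each Glut1-TG signal was above each WT signal, but Glut1-TG 1 only slightly. The mean was 1457 ± 351 (SD, n = 3) in WT and 2518 ± 493 (SD, n = 3) in Glut1-TG, 1.74-fold on the log scale, with a log2 fold change of 0.80 ± 0.19 (SE), from 0.37 to 1.22 (limma adjusted p = 0.12). A further Ucp3 probe set read 466, 972 and 915 in WT and 1310, 1288 and 1548 in Glut1-TG, again without overlap, with a log2 fold change of 0.89 (adjusted p = 0.29 over all probe sets).

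Ppara itself, outside the list, fell in Glut1-TG hearts. Its brightest probe set read 1451, 1803 and 1299 in WT and 696, 576 and 745 in Glut1-TG, so the highest Glut1-TG signal was well under the lowest WT signal. The mean was 1518 ± 258 (SD, n = 3) in WT and 672 ± 86.8 (SD, n = 3) in Glut1-TG, 2.25-fold lower, with a log2 fold change of -1.17 ± 0.16 (SE), from -1.52 to -0.82 (limma adjusted p = 0.0085). The further Ppara probe sets gave -0.89 (adjusted p = 0.022 over all probe sets) and -0.42 (adjusted p = 0.34), both without overlap. The call for the brightest probe set held with any 1 array left out (adjusted p from 0.02 to 0.049), but that of the further one held only without Glut1-TG 2 (adjusted p from 0.061 to 0.16 in the other 5 fits). The first call was lost when arrays were centred on the cardiomyocyte markers (log2 fold change -0.97, adjusted p = 0.058), without the intensity trend (adjusted p = 0.15) and with the methods' test after adjustment (adjusted p = 0.23).

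Beside that fall, the 16 measured textbook PPAR targets of the list (of 18) were spread on both sides of 0. None passed limma, 7 lay below 0 and 9 above, and their median log2 fold change was 0.03, within a range from -0.85 for Ehhadh to 0.95 for Angptl4. Groups did not overlap for 3 lower and 4 higher targets, beside 8.77% and 8.67% of all genes. Of 8 measured targets outside the list none passed either, and the lowest p was that of Pdk4, the kinase that holds back pyruvate oxidation. Pdk4 read 26247, 29434 and 29727 in WT and 34389, 35868 and 36629 in Glut1-TG, with a log2 fold change of 0.33 ± 0.08 (SE; limma adjusted p = 0.15) and no overlap.

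Other genes that regulate the pathway were measured for 12 of 13 receptors and coactivators of the PPAR, RXR, ERR and PGC-1 families. Ppara was the 1 that fell past limma, beside 0.599% of all genes, and none rose. The median log2 fold change over the 12 was -0.09.

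**Figure D3:**
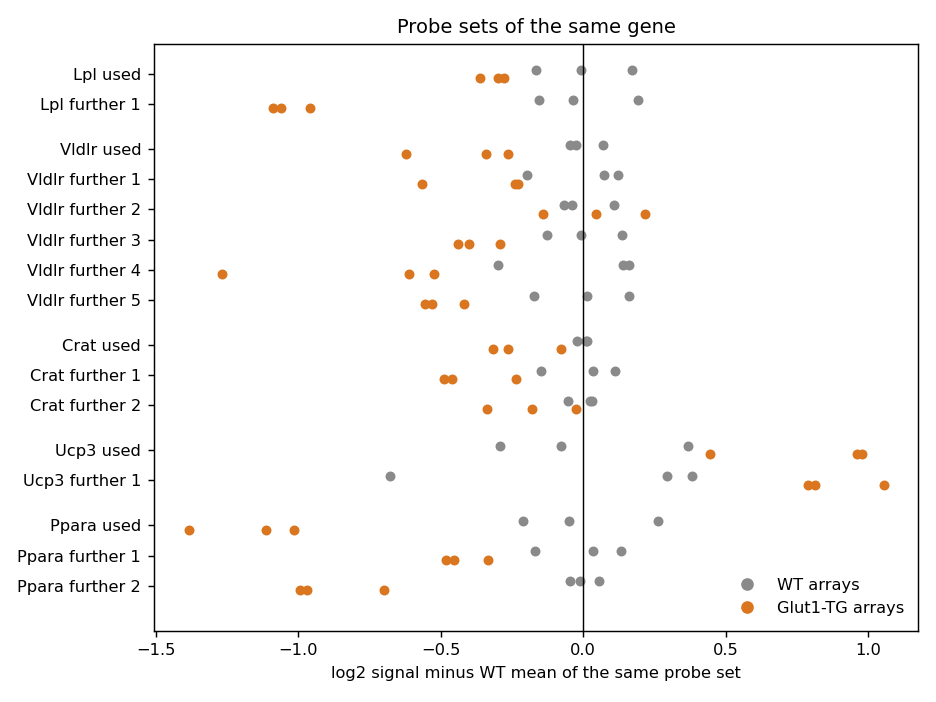
Log2 signal of each array minus the WT mean of the same probe set (x axis) for all probe sets above the filter of Lpl, Vldlr, Crat, Ucp3 and Ppara; grey points are WT and orange points Glut1-TG. The further Lpl probe set lies about 1.03 below WT while the one used lies 0.31 below, 1 of 6 Vldlr probe sets overlaps, and all 3 Ppara probe sets lie below WT.

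Of the 31 further probe sets above the filter, 8 did not share the sign of the one used after rounding. These 8 include both further Cd36 probe sets (-0.17 and -0.14), because the Cd36 one used was 0.00. Of the 31, 3 differed from the one used by more than 0.5. Beside Lpl these were a dim Acsl6 probe set with 0.85 and a dim Fabp3 probe set with 0.39, both with overlapping groups. For Vldlr, 5 of 6 probe sets had no overlap and lay between -0.80 and -0.34, and the remaining one overlapped with 0.04. The direction of Vldlr therefore rested on most but not all of its probe sets.

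Promoter sequence was read for 30 of the 37 genes from RefSeq (GRCm38.p6) as the 250 bases before the annotated start. PPARs bind with RXR to a pair of AGGTCA hexamers, and 6 of the 30 members held at least 1 such hexamer on either strand (Acadm, Acadvl, Acsl6, Cd36, Cpt1a and Ucp3), beside 15.8% of 27025 genes. The direct repeat of the hexamer with 1 base between was found in 0 of 30 members and in 0.0407% of all genes. TCAAGGTCA, a motif of estrogen-related receptors that contains the hexamer, was found on either strand in Acsl6 alone, beside 0.422% of all genes. These are matches of letters in a short window, and no binding was measured.

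The sequences that bear on these counts are the Ucp3 promoter, as that of the member with the lowest p, the Acadm and Cpt1a promoters, as those of textbook PPAR targets with overlapping and separate groups, and the Hadhb promoter that lies between both subunit genes. Each runs 5′ to 3′ on the strand of its gene and ends at the base before the start, and capitals mark AGGTCA or, on the other strand, TGACCT. They span chr7:100472741-100472990 (plus strand) for Ucp3, chr3:153944644-153944893 (minus strand) for Acadm, chr19:3323051-3323300 (plus strand) for Cpt1a and chr5:30155003-30155252 (plus strand) for Hadhb.
Ucp3: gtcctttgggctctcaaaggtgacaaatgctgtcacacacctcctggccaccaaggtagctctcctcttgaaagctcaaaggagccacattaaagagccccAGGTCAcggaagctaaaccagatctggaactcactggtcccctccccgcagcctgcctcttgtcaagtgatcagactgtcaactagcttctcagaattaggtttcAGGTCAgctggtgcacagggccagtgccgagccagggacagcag
Acadm: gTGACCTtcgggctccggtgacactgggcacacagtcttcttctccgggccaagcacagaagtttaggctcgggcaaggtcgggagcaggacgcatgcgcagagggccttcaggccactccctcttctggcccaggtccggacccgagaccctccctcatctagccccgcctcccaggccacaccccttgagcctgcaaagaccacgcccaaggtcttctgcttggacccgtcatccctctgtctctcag
Cpt1a: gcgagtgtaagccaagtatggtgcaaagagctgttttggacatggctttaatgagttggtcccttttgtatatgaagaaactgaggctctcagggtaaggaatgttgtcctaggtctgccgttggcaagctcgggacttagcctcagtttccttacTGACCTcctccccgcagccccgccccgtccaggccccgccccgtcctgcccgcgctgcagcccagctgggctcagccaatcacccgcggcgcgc
Hadhb: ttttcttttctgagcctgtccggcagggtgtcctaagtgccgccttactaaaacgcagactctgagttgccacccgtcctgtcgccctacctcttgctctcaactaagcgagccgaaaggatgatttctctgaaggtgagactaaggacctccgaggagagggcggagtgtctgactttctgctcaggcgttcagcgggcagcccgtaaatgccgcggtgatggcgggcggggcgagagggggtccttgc
In Ucp3 the hexamer stands at -149 to -144 and at -44 to -39 from the start, in Acadm at -249 to -244 and in Cpt1a at -94 to -89 on the other strand, and Hadhb holds none. Of the 6 members with a match, Ucp3 and Cpt1a had groups apart and higher in Glut1-TG hearts, and the groups of the other 4 overlapped. Groups were apart for 38.2% of all 34 measured members, so no link between the hexamer and the difference is read from this.

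Other genes of fatty acid metabolism were taken from lists around the pathway. In mitochondrial oxidation and carnitine handling, 15 of 18 further genes were tested. Of these 2 fell and 1 rose past limma, beside 0.599% and 0.258% of all genes. Acad11, an acyl-CoA dehydrogenase of long and very long chains, read 6269, 6641 and 7070 in WT and 3717, 4145 and 3949 in Glut1-TG and fell by 0.76 on the log2 scale (SE 0.08, limma adjusted p = 0.0041). This was a clear separation, with the highest Glut1-TG signal far below the lowest WT signal. The Acad11 call was lost when arrays were centred on the cardiomyocyte markers (adjusted p = 0.056), without the intensity trend (adjusted p = 0.15) and with the methods' test after adjustment (adjusted p = 0.19), and held with any 1 array left out (adjusted p from 0.0088 to 0.033).

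Hsd17b10, a mitochondrial dehydrogenase that also serves isoleucine breakdown, fell by 0.51 on the log2 scale (SE 0.09, limma adjusted p = 0.039), from 7051, 6596 and 7286 in WT to 4599, 5430 and 4747 in Glut1-TG. Dbi, the acyl-CoA binding protein, rose by 0.50 on the log2 scale (SE 0.09, limma adjusted p = 0.043), from 6434, 7013 and 6686 to 9157, 10585 and 8727. The WT and Glut1-TG arrays were apart for both genes. The Dbi call was lost whichever array was left out (adjusted p from 0.069 to 0.20). The Hsd17b10 call was lost without any of the arrays except Glut1-TG 2 (adjusted p from 0.083 to 0.20 in those 5 fits).

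In the peroxisomal list 13 of 17 genes were tested and none passed. Scp2, the sterol carrier protein with a thiolase form, had the lowest p, with a log2 fold change of -0.32 ± 0.08 (SE; limma adjusted p = 0.17). Abcd2, a peroxisomal fatty acyl-CoA transporter, had 1.31 ± 0.55 (SE; limma adjusted p = 0.42). Abcd2 was dim, with signals of 47, 253 and 178 in WT and 281, 329 and 347 in Glut1-TG. Its WT 1 signal was under the filter of 115. In the uptake list 8 of 12 were tested and none passed, with log2 fold changes from -0.09 to 0.18. The upper end was Gpihbp1, which anchors lipoprotein lipase in capillaries (limma adjusted p = 0.64).

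The probe sets of the members were bright ones. Of the 34 genes, 21 (61.8%) stood among the 10% of genes with the highest signal, although the signal of different probe sets does not rank transcripts. Bright genes as a whole tended below 0, with 899 of 1317 below 0 and a median log2 fold change of -0.07. The 21 bright members had 14 below 0 and a median of -0.10, and 7 of them (33.3%) had groups apart, beside 27.6% of the bright genes. For the other 13 members the median was -0.05, and 6 (46.2%) had groups apart, beside 16.3% of 11861 genes.

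All 14 cardiomyocyte markers lay below 0, beside 899 of the 1317 genes in the brightest 10%, to which they belong. Their log2 fold changes ran from -0.29 to -0.12 with a median of -0.19, and none passed limma. Their summed signal was 562026 to 688747 in WT and 527305 to 559195 in Glut1-TG hearts, apart by a narrow gap only. Taken singly, 4 of the 14 had groups apart, all lower, beside 8.77% of all genes. The part of this shift in the lower signals of Fabp3, Lpl, Crat, Hadh, Etfa and others was not tested. Of the brown adipocyte list Cidea rose (limma adjusted p = 0.031, and 0.092 to 0.15 when any array except Glut1-TG 1 was left out). Cox7a1 had a log2 fold change of -0.18, Dio2 0.05 and the dim Elovl3 0.72 (limma adjusted p = 0.49, 0.95 and 0.53). Ucp1 was under the filter, so the list did not move as 1 group. No marker of fibroblasts, macrophages, smooth muscle or red blood cells passed.

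**Figure D4:**
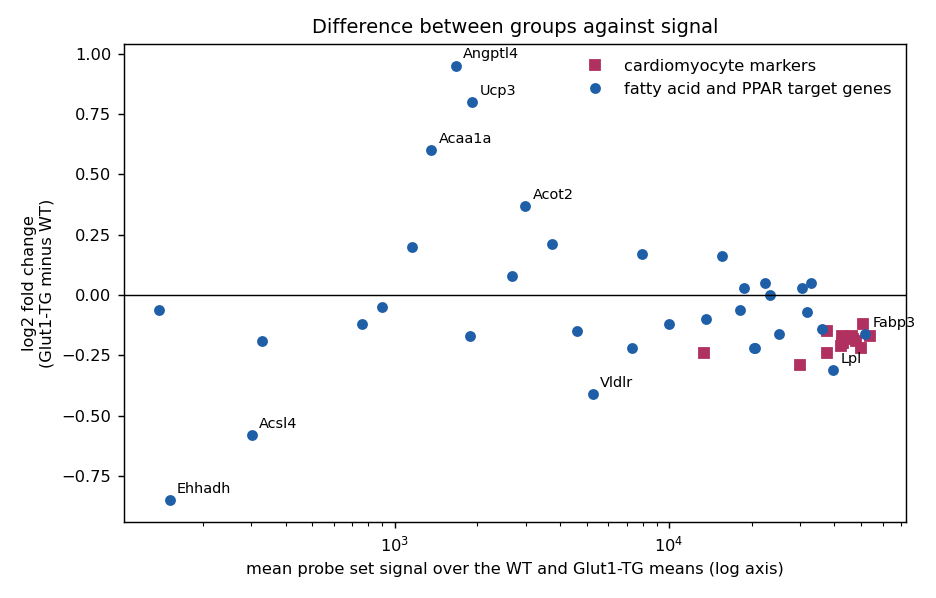
Log2 fold change (Glut1-TG minus WT, y axis) against the mean probe set signal (log x axis) for the 34 genes in blue and the 14 cardiomyocyte markers in red. The markers sit between -0.29 and -0.12 at high signal, where most bright members also lie near or slightly below 0, and Angptl4, Ucp3 and Acaa1a stand above at lower signal.

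Single arrays also stood out across the list. Glut1-TG 2 had the highest signal of its group for 25 of 34 members and the lowest for 1, while the lowest was on Glut1-TG 1 for 17 and on Glut1-TG 3 for 16. The median difference of the members from the WT mean was -0.14, 0.04 and -0.13 on Glut1-TG 1, 2 and 3, and 0.06, -0.08 and 0.01 on WT 1, 2 and 3. The Glut1-TG arrays thus straddled 0 for the list as a whole. For the cardiomyocyte markers the same values were -0.16, -0.15 and -0.25 in Glut1-TG and 0.13, -0.15 and 0.02 in WT.

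How the arrays were scaled decided the side of 0 for many members. With the deposited scaling 21 of 34 lay below 0, with quantile normalization 16, with arrays centred on their medians 26, and with arrays centred on the cardiomyocyte markers 7. The median of the members was then 0.01, -0.17 and 0.13, while that of all genes was 0.00, -0.08 and 0.21. Relative to all genes, the members' median was therefore slightly above 0 after quantile normalization and below it in the other scalings.

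The sign was the same in each scaling for 15 members and differed in at least 1 for 19. Lpl, Vldlr, Acsl4, Crat, Hadh, Ehhadh and Etfa stayed below 0, though Crat, Hadh and Etfa reached -0.02 with cardiomyocyte centring. Angptl4, Acot2, Cpt1a, Cpt2, Acaa1a, Eci2, Decr1 and Ucp3 stayed above 0, and none of the 15 passed limma in these scalings. Slc27a1, whose groups were apart with the deposited scaling, moved to 0.02 with cardiomyocyte centring.

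**Figure D5:**
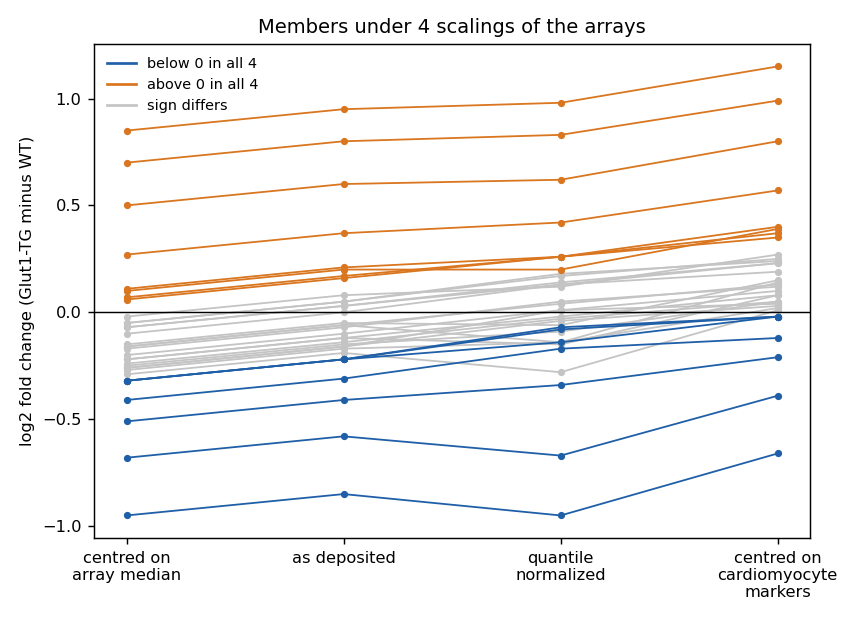
Log2 fold change (Glut1-TG minus WT, y axis) of the 34 genes under 4 scalings of the arrays (x axis), 1 line per gene. Blue lines (7) stay below 0 and orange lines (8) above 0 throughout, while the 19 grey lines change sign in at least 1 scaling.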

How the data were processed

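Total RNA of left ventricles was labelled as biotinylated cRNA and hybridised to Affymetrix mouse arrays, 3 WT and 3 Glut1-TG. The deposited intensity values, 1 signal per probe set on a linear scale, were made by the authors with the GCOS software, whose version is not given in the sources used here. The table holds no detection calls, and the number of arrays limits the precision. Trimmed by 2% at both ends, the mean signal of each array was 500, so no further scaling was applied. Control probe sets (64 of 45101) were dropped, 48 values below 1 were raised to 1, and log2 was taken. Of the other probe sets 34945 had 1 symbol, 932 several and 9160 none; probe sets with 1 symbol were used.

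Glut1-TG was compared with WT in R 4.3.3 with limma 3.58.1 (lmFit, eBayes with trend), without covariates, with Benjamini-Hochberg adjustment over 13178 genes. The study's thresholds were applied with the methods' t-test on log2 signal. The paper does not state the signal scale, filter or probe set choice behind its own calls. Here 349 genes were lower and 423 higher, fewer than the paper reports in both directions. From its own calls at these unadjusted thresholds, the paper also lists fatty acid degradation among the KEGG pathways enriched in its downregulated genes. That gene set is not the list used here, and its enrichment was not tested here. The procedure was run on simulated data, but how often a change of a given size passed there is not reported here. Values on every array are given for members past a threshold or with groups apart and for those whose role needs it, and from the other lists for genes past limma and some with the lowest p. The members and all lists were chosen with earlier results of these data known. No scan date or batch is given in the labels. The 16 alternatives covered scaling, offset, filter, probe sets, left-out arrays, the replicate number as a block, the variance trend and the test.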

Additional observations from a re-analysis of the deposited data

How the results depend on the processing

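With the deposited scaling no member passed limma, and this held in every alternative except 2. With the mean of all probe sets of a gene 1 member fell (Lpl, log2 fold change -0.67, adjusted p = 0.022), and with the replicate number as a block 1 member rose (Ucp3, adjusted p = 0.032). The labels do not say whether the replicate numbers pair the arrays. Deviations of same-numbered arrays correlated at 0.08, -0.03 and 0.05, and those of the other pairs from -0.11 to 0.06. With 3 arrays per group such correlations cannot settle whether arrays were paired. With this block 1 of the other fatty acid genes fell and 0 rose, and 46 of all genes fell. Of the other fatty acid genes, 2 fell and 1 rose with the main settings. This became 2 higher after quantile normalization, 1 lower and 0 higher with centring on array medians or with the mean of probe sets, and 0 lower and 2 higher with cardiomyocyte centring. It was 0 higher without a filter, and 0 in both directions without the trend or with the methods' test after adjustment. Over all genes 79 fell and 34 rose. This became 52 and 14 with median centring, 25 and 69 with cardiomyocyte centring, 37 and 9 with the mean of probe sets, 2 and 2 without the trend, and 0 and 1 with the methods' test.

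At the study's thresholds 2 members were lower and 2 higher. With cardiomyocyte centring there were 0 lower and 7 higher, with median centring 0 higher, and with the strict filter, which kept the upper 40% of probe sets, 1 lower. The members' median of -0.07 became -0.17 with median centring and 0.13 with cardiomyocyte centring. Leaving out each array in turn gave 0 members past limma in either direction, 1 to 2 other fatty acid genes lower and 0 higher, 31 to 65 of all genes lower and 13 to 30 higher, 0 to 2 members lower and 0 to 2 higher at the study's thresholds, and a members' median from -0.12 to -0.04. The study's thresholds gave 0 lower without Glut1-TG 1, Glut1-TG 3 or WT 3 and 1 lower without WT 1 or WT 2. They gave 0 higher without Glut1-TG 2, WT 1 or WT 3 and 1 higher without Glut1-TG 1 or Glut1-TG 3. Ppara passed in every such fit. The further probe sets of Lpl and Ppara were followed through these settings as alternatives added after the data were seen, and the Lpl call of the further probe set held in each fit with an array left out. The cause of these differences was not tested. Genes at signals near the filter, such as Ehhadh and Acsl3, carry the widest intervals, and for 10 of 34 members the 95% interval reached beyond 0.5 on the log2 scale, so that changes larger than 0.5 were not excluded.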
